A study of Danio rerio with 114 samples.

Results

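The genes described here, 10 of the 31466 gene IDs counted, were each far lower in 1 genotype in at least 1 developmental period. All but ENSDARG00000097414 were nearly absent there, and the counts of all 10 were followed library by library. The genes were chosen by the size of the mean log2 fold change, ski7-/- over wild type. They had to be called in the same direction at every stage of a period in polyA+ RNA. At each of these stages the libraries of the genotypes also had to lie apart. The top 2 in each direction were taken in each of the 3 periods. A lack of overlap at a stage of a period that chose the gene was thus fixed by the choice. The same values therefore cannot test the genes in the periods that chose them, and they are given there as a description. The question was whether the on-off pattern kept its direction from 1 period to the next, and whether it was shared by all replicates of a genotype.

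The study compared ski7-/- zebrafish with wild type, both in the TLAB strain, by RNA-seq across the oocyte-to-embryo transition. Oogenesis was covered by 4 oocyte stages (O1 to O4), the mature egg by 3 states (inactive or unactivated, UNA; activated, ACT; fertilized, FER), and embryogenesis by 4 stages from early cleavage to sphere (E1 to E4). Each genotype and stage had 3 replicates, with 66 libraries of polyA+ RNA over all stages and 48 libraries of rRNA-depleted RNA over oogenesis and embryogenesis. The ski7-/- group is 1 CRISPR/Cas9 allele, a deletion in the ski7-specific exon of hbs1l, so that line and mutation cannot be told apart. Oocytes were sorted by size from dissected ovaries of different females for each replicate, the 3 egg states of a replicate were taken from 1 female, embryos were pooled, and only eggs of good quality were used. Females were thus shared by the stages of an oocyte or egg replicate. Whether any female gave both eggs and embryos, or whether oocytes came from the same animals, is not given in the sources used here, so that period and animal cannot be told apart. Whether wild-type females were siblings of the mutants is not given for these libraries in the sources used here.

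Ski7 is a splice variant of hbs1l that bridges the Ski complex to the cytoplasmic RNA exosome, which degrades mRNA from the 3′ end. The egg and the early embryo are largely silent in transcription, so that their mRNA is mostly what the oocyte has stored. In bulk RNA, fewer cells with a transcript and less transcript per cell cannot be told apart. Among the 10 genes, dok1a encodes a docking adaptor that is phosphorylated by tyrosine kinases, cyp2x7 a cytochrome P450 monooxygenase of family 2, akap12a an A-kinase anchoring scaffold protein, ftr19 a member of the finTRIM family that expanded in fish, and cirop a metallopeptidase needed by the ciliated left-right organizer. The other genes carry clone names (zgc:173544, si:ch211-11i5.3, si:ch1073-190k2.1, si:dkey-81e3.2 and ENSDARG00000097414, whose clone name stands beside its ID in the plots), with no role given here. Only uniquely mapped reads were counted, and the level of ftr19 and of the clone-named genes is uncertain where near-identical copies exist.

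Levels are CPM, the counts of a gene scaled to a common total of reads on genes. The polyA+ libraries held between 2910639 and 145420525 such reads and the rRNA-depleted ones between 1439427 and 46600444. A count of 3 reads, taken as the floor of detection, thus corresponds to 0.0206 to 1.03 CPM in polyA+ RNA and to 0.0644 to 2.08 CPM in rRNA-depleted RNA. The hbs1l locus, whose counts sum ski7 and hbs1l transcripts and cannot show the deletion, had 12.7 to 19.8 CPM in ski7-/- oocytes and 15.1 to 29.0 CPM in wild-type oocytes in polyA+ RNA. All 8 oocyte markers were detected in polyA+ oocytes. Their sum was 4193 to 7493 CPM in ski7-/- and 5030 to 7712 CPM in wild type. Summed erythrocyte markers (2 of 5 found) had 0 to 20.6 CPM and 0.726 to 27.3 CPM in the same order. Ovarian follicle markers (6 of 8 found) had 142 to 243 CPM and 70.8 to 252 CPM, and in eggs 180 to 210 CPM and 143 to 278 CPM. Liver markers reached 22.9 and 47.4 CPM in oocytes, and leukocyte markers (3 of 6 found) 14.1 and 9.04 CPM. In eggs leukocyte markers reached 102 and 68.1 CPM, at medians of 0.152 and 0.560 CPM. All libraries but 1 had a higher mean correlation with the set of their own replicate number, genotype and period than with another set. The exception was the rRNA-depleted wild-type E4 library of replicate 2 (0.0743 with its own set, 0.103 with another). The wild-type embryo libraries of replicate 2 stood apart, with mean correlations of 0.0743 to 0.331 with their own set, against 0.165 to 0.934 for the rest. The E2 library of that replicate is named below wherever it carries reads that its group lacks. The lowest of the rest was the polyA+ O2 library of ski7-/- replicate 1, which also had the lowest correlation with its rRNA-depleted counterpart (0.172).

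cyp2x7 was the only gene whose on-off pattern changed direction between periods, and in 6 of the other genes the pattern was seen in a single period. A genotype was taken as on at a stage with a mean of at least 5 CPM and as off with a mean under 0.5 CPM, and the stage as on-off where 1 genotype was on, the other off, and the libraries did not overlap. Of 190 gene and stage comparisons over both library types, 67 were on-off, 27 with ski7-/- on and 40 with wild type on. Of these, 65 lay among the 76 comparisons in the periods that chose the gene, and the remaining 2 outside them. Of the rest, 3 genes were on-off in 2 periods, 1 in none and 0 in all 3 periods. The genes with 2 periods were cyp2x7, on in ski7-/- oocytes and in wild-type eggs, and si:ch1073-190k2.1 and si:dkey-81e3.2, which were on in wild type in eggs and embryos. Both periods had chosen cyp2x7, in opposite directions. Its change of direction was thus fixed by the choice and is a description. For comparison, among all genes tested the share on-off at every stage, with ski7-/- on and with wild type on, was 0.0832% and 0.104% in oogenesis, 0.0554% and 0.152% in eggs, and 0% and 0.108% in embryogenesis in polyA+ RNA, and 0.0689% and 0.138% in oogenesis and 0.0101% and 0.101% in embryogenesis in rRNA-depleted RNA. Nothing is read from the members' shares against these, since the choice fixed them.

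**Figure D1:**
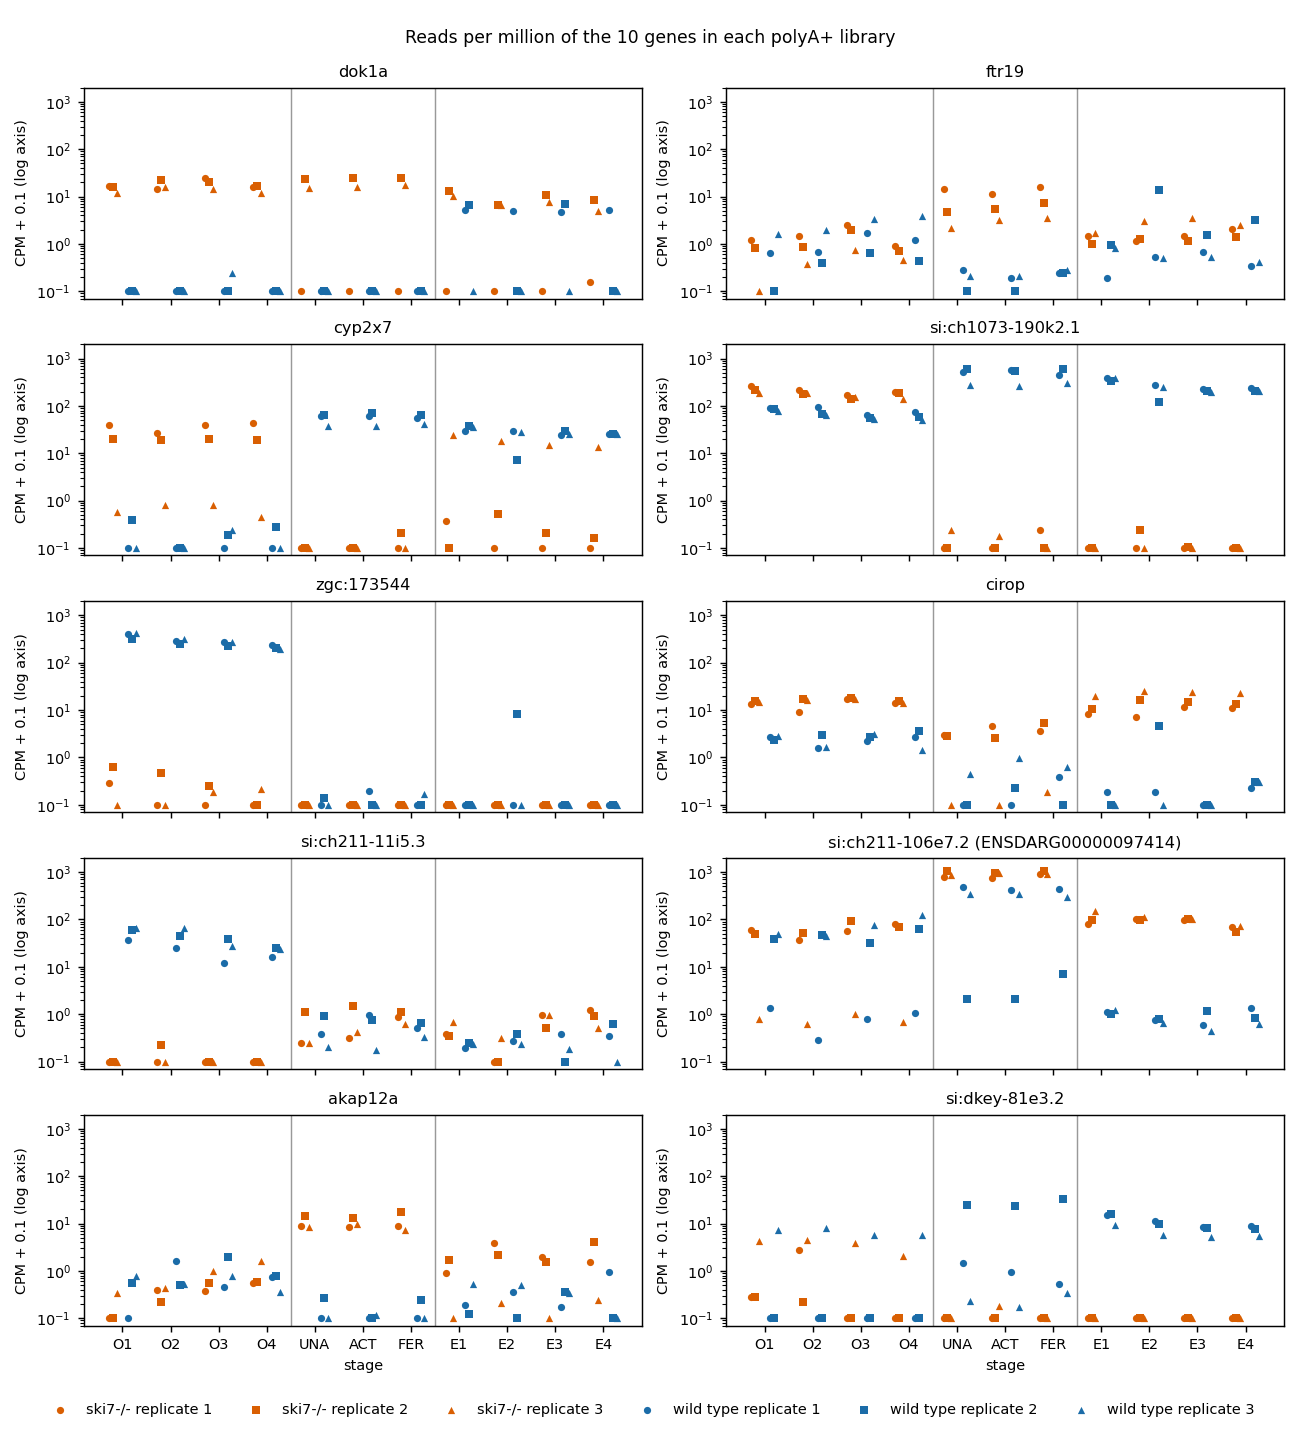
CPM + 0.1 on a log axis against stage for each of the 10 genes in every polyA+ library, with ski7-/- in orange and wild type in blue, symbols for replicates 1 to 3, and grey lines between oogenesis, eggs and embryogenesis. Points at the foot of a panel have no reads, and cyp2x7 is the gene in which orange points lie high in oocytes and blue points lie high in eggs.

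cyp2x7 (ENSDARG00000044002) was the gene that changed sides. In polyA+ oocytes it had 40.0, 19.9 and 0.468 CPM in ski7-/- replicates 1, 2 and 3 at O1, against 0, 0.298 and 0 CPM in wild type. At O4 the same order held, with 43.5, 18.9 and 0.350 CPM in ski7-/- and 0, 0.172 and 0 CPM in wild type. The gene was thus high in 2 of the 3 ski7-/- females only, with replicate 3 at or under 0.719 CPM at all 4 stages. In eggs the levels were 0, 0 and 0 CPM in ski7-/- and 61.1, 63.4 and 37.3 CPM in wild type at UNA, and over the 3 egg states ski7-/- had 1 read in all and wild type 9814. No ski7-/- egg library overlapped with wild type. In polyA+ embryos ski7-/- was split as well, though replicate numbers are not known to mark the same animals in both periods. There ski7-/- replicate 3 had 13.4 to 24.2 CPM, and replicates 1 and 2 were at or under 0.434 CPM. Wild type had 7.05 to 37.4 CPM, with the lowest value in the E2 library of replicate 2. Embryos were not used to choose the gene, and there the mean log2 fold change was −2.28 (range over stages −2.72 to −1.72, SE 1.74 to 1.83, n = 3 per genotype and stage), which did not pass the test of edgeR's quasi-likelihood fit (Benjamini-Hochberg adjusted p between 0.360 and 0.543). In rRNA-depleted embryos it was −2.03 (SE 1.42 to 1.45, edgeR adjusted p between 0.337 and 0.409). Without ski7-/- replicate 3, the mean log2 fold change in embryos was −7.97 in polyA+ RNA and −7.16 in rRNA-depleted RNA. Leaving out that replicate, the only high ski7-/- set, leaves ski7-/- sets with means under 1 CPM. The outcome is thus fixed, and no call is read from it.

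dok1a (ENSDARG00000078108) was present in all ski7-/- oocytes and nearly absent from wild-type oocytes. In polyA+ RNA it ranged from 11.7 to 24.9 CPM in the 12 ski7-/- oocyte libraries (median 15.7) and from 0 to 0.138 CPM in the 12 wild-type libraries, with 1948 reads in ski7-/- and 1 read in wild type. The ratio of pooled levels was 1767 (95% counting interval 317 to 69809, which covers counting error only). The rRNA-depleted oocytes gave 1245 reads in ski7-/- and 4 in wild type, and the groups did not overlap in either library type. In eggs, which did not choose the gene, the levels were 0, 22.8 and 15.3 CPM in ski7-/- replicates 1 to 3 and 0, 0 and 0 CPM in wild type at UNA, with the same replicates present at ACT (24.0 and 16.1 CPM) and FER (24.4 and 17.5 CPM). All 9 wild-type egg libraries had no reads, so that ski7-/- eggs were at least 1231-fold higher against a floor of 3 reads over the group, a bound that rests on replicates 2 and 3. dok1a passed the filter on low counts in eggs only through the ski7-/- libraries, so that only a higher level in ski7-/- could be tested. The edgeR test did not pass in eggs (adjusted p between 0.0685 and 0.085). Leaving out ski7-/- replicate 1, the set with no reads, fixes the outcome, so no call is read from that run. In embryos both genotypes held replicates with and without the transcript. ski7-/- replicates 2 and 3 had 4.90 to 13.0 CPM and replicate 1 at most 0.0601 CPM in polyA+ RNA, against 4.50 to 5.16 CPM in wild-type replicate 1 and 0 CPM in replicate 3. Wild-type replicate 2 had 6.65 and 6.86 CPM at E1 and E3 and no reads at E2 and E4. The mean log2 fold change in polyA+ embryos was 1.06 (SE 1.84 to 1.96, edgeR adjusted p between 0.685 and 0.837), and it was 5.15 without wild-type replicate 1 and 0.50 without wild-type replicate 3. No wild-type polyA+ embryo library reached the filter of 10 CPM (at most 6.86 CPM). There too only a higher level in ski7-/- could be tested.

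akap12a (ENSDARG00000091792) was on in ski7-/- at the egg states only. It had 8.80, 14.2 and 8.43 CPM in ski7-/- eggs and 0, 0.163 and 0 CPM in wild-type eggs at UNA. Over the 3 states 1861 reads fell on it in ski7-/- and 6 in wild type, a ratio of pooled levels of 430 (counting interval 197 to 1172). In oocytes it was low in both genotypes, at 0 to 1.52 CPM in ski7-/- and 0 to 1.91 CPM in wild type in polyA+ RNA, and in rRNA-depleted RNA at 0 to 2.27 CPM and 0.880 to 4.31 CPM. Its oocyte means were lower in ski7-/- than in wild type (0.425 and 0.669 CPM in polyA+, 0.784 and 2.04 CPM in rRNA-depleted RNA), the reverse of the eggs, but the gene was under the filter on low counts there and had no test. In polyA+ embryos ski7-/- replicates 1 and 2 held 0.822 to 3.93 CPM and replicate 3 at most 0.140 CPM, against 0 to 0.860 CPM in wild type.

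ftr19 (ENSDARG00000094131) was likewise on in ski7-/- eggs, at a lower level and with more spread between females. It had 14.4, 4.54 and 2.04 CPM in ski7-/- eggs and 0.183, 0 and 0.106 CPM in wild-type eggs at UNA, and 15.6, 7.30 and 3.42 CPM against 0.140, 0.142 and 0.180 CPM at FER. The genotypes did not overlap at any egg state, with a ratio of pooled levels of 55.9 (counting interval 37.3 to 87.6). Over all oocyte and over all embryo libraries the genotypes overlapped. At polyA+ E1 alone they did not, with 1.37, 0.908 and 1.62 CPM in ski7-/- and 0.0897, 0.844 and 0.701 CPM in wild type. The polyA+ range was 0 to 2.45 CPM in ski7-/- oocytes and 0 to 3.71 CPM in wild-type oocytes. In embryos it was 0.908 to 3.38 CPM in ski7-/- and 0.0897 to 13.3 CPM in wild type, where the highest value was the E2 library of replicate 2.

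cirop (ENSDARG00000098915) was on in ski7-/- embryos and was also higher in ski7-/- oocytes, a period that did not choose it. In polyA+ embryos it had 6.87 to 25.4 CPM in ski7-/- (median 14.0) and 0 to 4.56 CPM in wild type (median 0.0431). The one wild-type value above 0.207 CPM was the E2 library of replicate 2, which had 3.91 CPM in rRNA-depleted RNA. In polyA+ oocytes at O1 the levels were 13.6, 15.3 and 15.0 CPM in ski7-/- and 2.54, 2.23 and 2.70 CPM in wild type, and the ranges over the 4 stages, 9.08 to 17.8 CPM and 1.32 to 3.43 CPM, did not overlap. cirop rose in ski7-/- oocytes at every stage, with a mean log2 fold change of 2.65 in polyA+ RNA (2.54 to 2.75, SE 0.33 to 0.34, edgeR adjusted p between 1.6e-05 and 4.8e-05) and 2.95 in rRNA-depleted RNA (SE 0.34 to 0.37, adjusted p between 2.7e-06 and 2.9e-05). No wild-type oocyte library reached the filter of 10 CPM (at most 3.43 CPM in polyA+ and 3.98 CPM in rRNA-depleted RNA). The gene was thus tested there through the ski7-/- libraries alone, so that only a higher level in ski7-/- could be called. The eggs between these periods were lower and split by female, with 2.43 to 5.24 CPM in ski7-/- replicates 1 and 2, at most 0.0855 CPM in replicate 3, and 0 to 0.872 CPM in wild type.

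Among the clone-named genes, zgc:173544 (ENSDARG00000070714) and si:ch211-11i5.3 (ENSDARG00000097581) marked wild-type oocytes. zgc:173544 had 0.182, 0.539 and 0 CPM in ski7-/- oocytes at O1, against 398, 318 and 431 CPM in wild-type oocytes. Over the 4 polyA+ stages 10 reads fell on it in ski7-/- and 30427 in wild type. It was gone from eggs of both genotypes, with 0 reads in ski7-/- and 5 in wild type, and among embryos only the wild-type E2 library of replicate 2 had reads, 117 (8.09 CPM) in polyA+ and 33 (7.16 CPM) in rRNA-depleted RNA. si:ch211-11i5.3 had 1 read in ski7-/- oocytes in polyA+ RNA, against 3654 in wild type at 12.2 to 65.3 CPM. In rRNA-depleted oocytes it had no reads in ski7-/- and 1754 in wild type, which was at least 351-fold higher against a floor of 3 reads over the group. Its order turned in embryos without an on-off pattern. Rare reads in rRNA-depleted embryos came to 0.508 to 3.37 CPM in ski7-/- and 0 to 1.16 CPM in wild type, a ratio of pooled levels of 6.21 (counting interval 3.48 to 12.0), and the gene was under the filter and had no test.

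si:ch1073-190k2.1 (ENSDARG00000097973) was nearly absent from ski7-/- eggs and embryos, at the highest wild-type level among the genes with wild type on there, and it was higher in ski7-/- oocytes. At UNA it had 0, 0 and 0.145 CPM in ski7-/- eggs and 524, 598 and 271 CPM in wild-type eggs. Over the polyA+ embryos ski7-/- had 2 reads in all, against 43653 in wild type at 119 to 385 CPM, and the rRNA-depleted embryos gave 2 reads in ski7-/- and 4791 in wild type. The oocytes, which did not choose the gene, had 259, 213 and 192 CPM in ski7-/- and 90.0, 84.3 and 76.4 CPM in wild type at O1. All oocyte libraries of both genotypes thus held the transcript, and the polyA+ ranges, 140 to 259 CPM and 50.7 to 94.0 CPM, did not overlap. It rose in ski7-/- oocytes at every stage, with a mean log2 fold change of 1.40 in polyA+ RNA (1.27 to 1.53, SE 0.18, edgeR adjusted p between 1.3e-05 and 9.3e-05) and 1.60 in rRNA-depleted RNA (SE 0.29 to 0.33, adjusted p between 0.00099 and 0.0019). The oocytes and eggs are not stated to come from the same females, so that the difference between O4 and the egg was not followed within an animal.

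ENSDARG00000097414 differed by genotype in embryos and was split by female in oocytes. In polyA+ embryos it had 55.5 to 149 CPM in ski7-/- and 0.334 to 1.23 CPM in wild type, whose mean stayed above the limit for off. The pooled ratio was 123 (counting interval 103 to 148). In oocytes 1 replicate of each genotype was far lower than the others, though not without reads. At polyA+ O1 the levels were 60.1, 48.2 and 0.702 CPM in ski7-/- and 1.27, 39.5 and 49.2 CPM in wild type. In eggs all ski7-/- libraries were high (795, 1080 and 868 CPM at UNA), while wild type had 490, 2.03 and 352 CPM. Over the 3 states all ski7-/- libraries (737 to 1080 CPM) lay above all wild-type libraries (1.96 to 490 CPM), with wild-type replicate 2 far below the other wild-type females. The test did not pass in oocytes (mean log2 fold change 0.09 in polyA+ and −0.03 in rRNA-depleted RNA, edgeR adjusted p at least 0.899) or in eggs (1.61, SE 1.41 to 1.42, edgeR adjusted p between 0.398 and 0.472). Without wild-type replicate 2 the mean log2 fold change in eggs was 1.02. That female stood out by its level of this gene, so no call is read from leaving it out.

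si:dkey-81e3.2 (ENSDARG00000097406) had no reads in any of the 12 ski7-/- polyA+ embryo libraries and 5.01 to 15.6 CPM in the wild-type embryos. Wild type was at least 939-fold higher against a floor of 3 reads over the group. That bound leans on the E3 library of ski7-/- replicate 2, which had 145420525 reads on genes. In rRNA-depleted embryos 1 read fell on it in ski7-/- and 274 in wild type. In oocytes it was highest in 1 female of each genotype, with 0.182, 0.180 and 4.21 CPM in ski7-/- and 0, 0 and 7.39 CPM in wild type at O1, and replicate 3 of each genotype was highest at all 4 stages. At polyA+ O2 ski7-/- replicate 1 also had 2.61 CPM (27 reads), in the library named above as the lowest of the rest, above the 1.99 CPM of replicate 3 at O4, while its rRNA-depleted counterpart had no reads. In eggs a single wild-type female had most of the reads: ski7-/- had 0, 0 and 0 CPM at UNA and wild type 1.37, 24.6 and 0.127 CPM. Egg means met the on-off limits at 2 of 3 states, the only such comparisons outside the periods of choice. They rested on wild-type replicate 2, and the edgeR test did not pass (adjusted p between 0.0838 and 0.128).

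**Figure D2:**
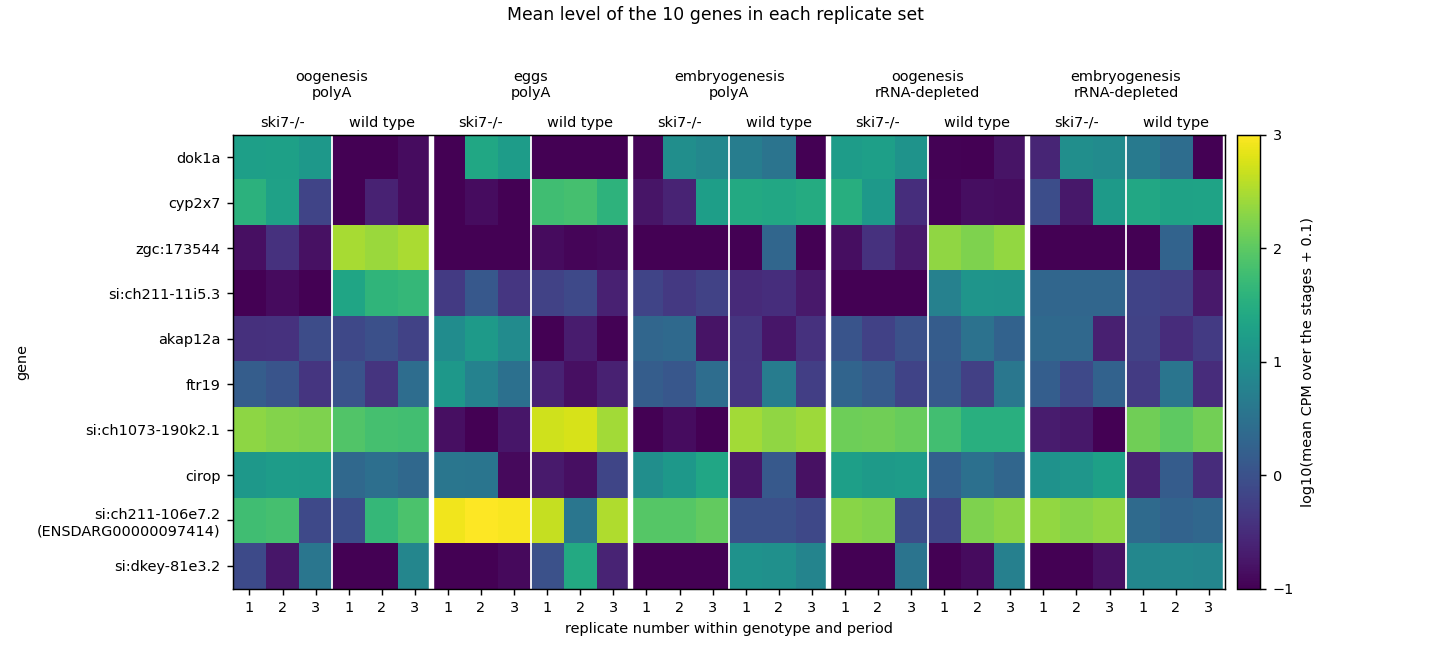
Mean level of each gene in each replicate set, all stages of 1 replicate number of 1 genotype in 1 period, as log10(mean CPM + 0.1) by colour, with ski7-/- left of wild type in each period and library type. Dark and bright cells stand beside each other within a genotype for ENSDARG00000097414 in oogenesis and for dok1a in ski7-/- eggs.

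In several genes the replicates of a single genotype were split in the same way as the genotypes. A replicate set, meaning all stages of 1 replicate number of 1 genotype in a period, was called on at a mean of at least 3 CPM and off under 1 CPM, limits set after the values had been seen. Of the 10 genes, 6 had a set that was on and another that was off within the same genotype in at least 1 period. By period and library type, 3 of 10 genes were split in oogenesis, 3 in eggs and 3 in embryogenesis in polyA+ RNA, and 4 and 3 in rRNA-depleted oogenesis and embryogenesis. The share among all genes tested was 1.46%, 2.84%, 1.71%, 1.6% and 1.54% in the same order. The members' counts include cyp2x7 in oogenesis, a period that chose it, and genes under the filter on low counts, which the share leaves out, so that nothing is read from the contrast. The splits in polyA+ RNA outside the periods of choice were those of dok1a in eggs and embryos, cyp2x7 in embryos, cirop in eggs, ftr19 in embryos (on in wild-type replicate 2 only, with 13.3 CPM at E2), ENSDARG00000097414 in oogenesis and si:dkey-81e3.2 in oogenesis and eggs. Between the genotypes, the sets did not overlap in 12 of 30 comparisons outside the periods of choice (40.0%), 7 of them with ski7-/- higher. Each had an exact two-sided permutation p of 0.1, the smallest that 3 against 3 can give. Among all genes tested the sets did not overlap in 37.7%, 41.6% and 40.9% in polyA+ oogenesis, eggs and embryogenesis and in 36.5% and 40.1% in rRNA-depleted oogenesis and embryogenesis, so that the 40.0% lies near the background. The 30 comparisons also include genes under the filter on low counts, which the background leaves out. Nothing is thus read from them about the members.

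Tests of single stages outside the periods of choice were possible in 12 of 30 comparisons, in which the gene reached 10 CPM in 3 or more libraries. Only cirop and si:ch1073-190k2.1 were called, both higher in ski7-/- at every oocyte stage and in both library types. This gave 4 comparisons called higher and 0 called lower. Only ski7-/- libraries carried cirop in oocytes and dok1a in eggs and polyA+ embryos past the filter. Only wild-type libraries did so for si:dkey-81e3.2 in eggs. For these genes the test could go in 1 direction only. Among all genes tested, 1.76% in polyA+ and 2.9% in rRNA-depleted oogenesis were higher in ski7-/- at every stage, and 1.88% and 3.5% lower. In the eggs 5.83% were higher and 6.38% lower, and in embryos 3.47% and 4.17% in polyA+ and 2.14% and 2.81% in rRNA-depleted RNA, with 0 of the comparisons outside the periods of choice called there in either direction. At an unadjusted edgeR p under 0.05, 19 of the 45 stage tests were higher in ski7-/-, those of cirop and si:ch1073-190k2.1 in oocytes and dok1a in eggs. The 3 that were lower were those of si:dkey-81e3.2 in eggs. These stages share females and no share over all genes stands beside the counts, so nothing is read from them. The polyA+ and rRNA-depleted libraries are not independent evidence for each other, since each of the 48 polyA+ libraries that have a counterpart correlated best with the rRNA-depleted library of the same replicate number.

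**Figure D3:**
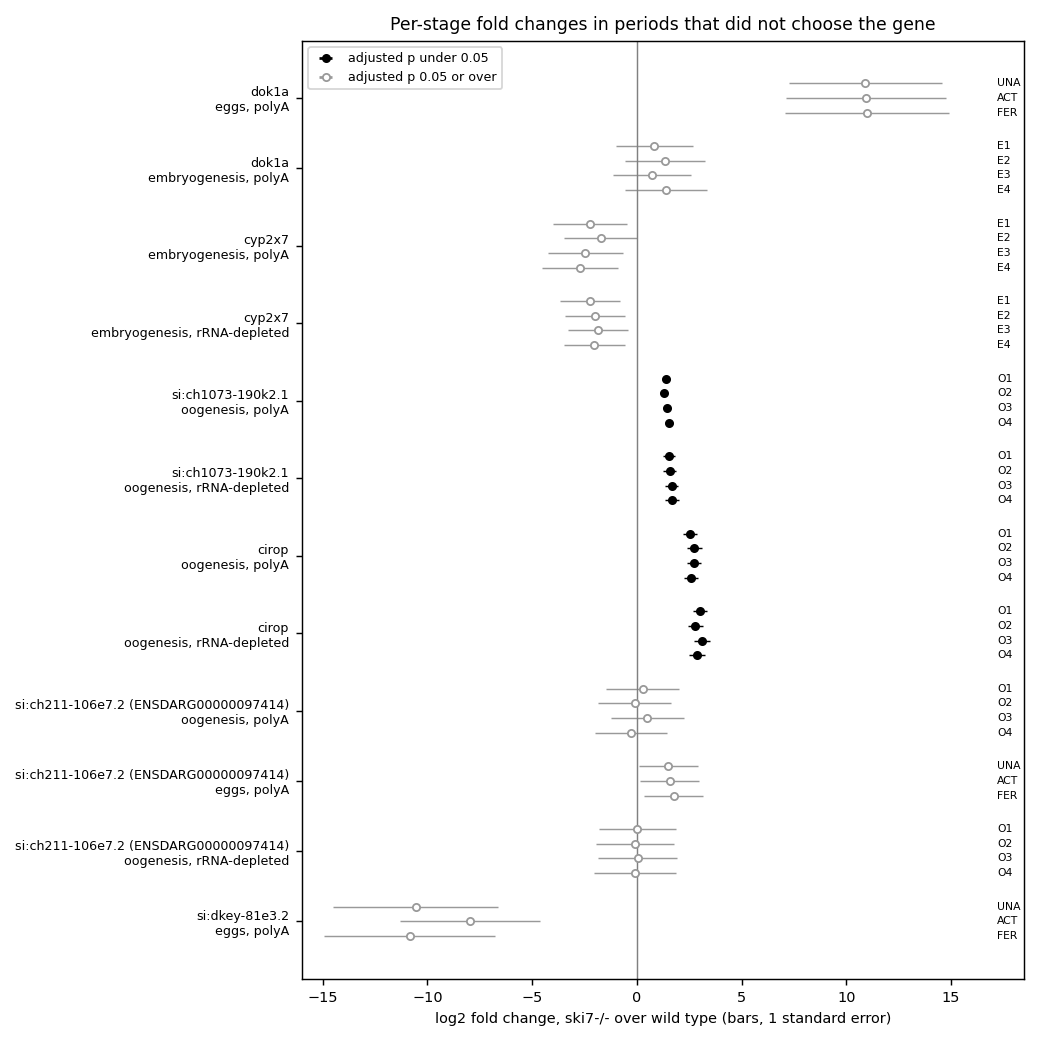
Log2 fold change, ski7-/- over wild type, at each stage for the 12 gene and period comparisons that passed the filter outside the periods that chose the gene, with bars of 1 standard error. Filled points, those of si:ch1073-190k2.1 and cirop in oogenesis, had an adjusted p under 0.05, and the bars of dok1a, cyp2x7, ENSDARG00000097414 and si:dkey-81e3.2 span several log2 units.

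The on or off state of a gene rarely differed between the library types. Of 480 pairs of libraries of the same gene, genotype, stage and replicate number, 185 were on (at least 3 CPM) in both, 206 off (under 1 CPM) in both, 0 on in polyA+ and off in rRNA-depleted RNA, and 4 on in rRNA-depleted and off in polyA+ RNA, with 85 in between. Levels differed more than states. si:ch211-11i5.3 had a median polyA+ over rRNA-depleted ratio of 3.88 (2.83 to 4.96) in oocyte pairs, while ENSDARG00000097414 had 0.286 (0.183 to 0.654) in oocytes and 0.475 (0.289 to 0.604) in embryos. CPM has another denominator in each library type, so that these ratios rank the genes against each other only.

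**Figure D4:**
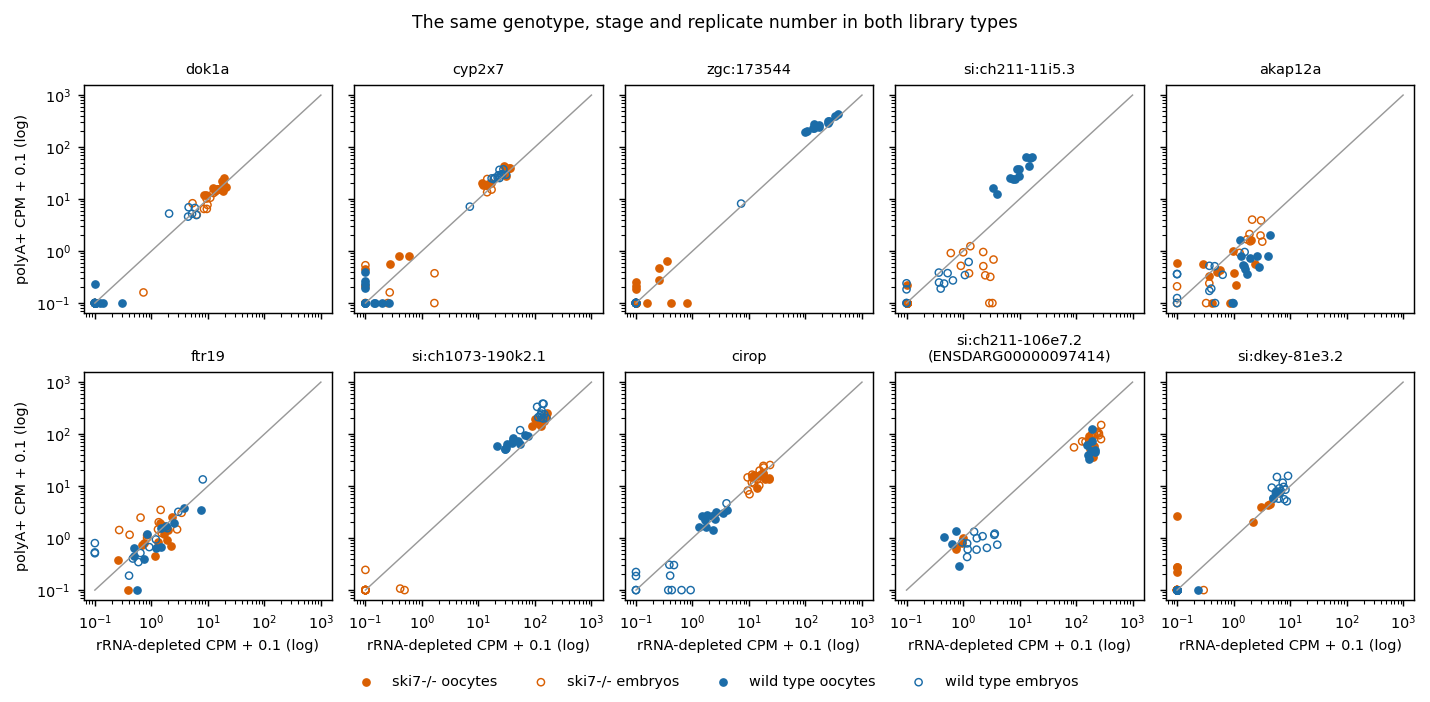
CPM + 0.1 in polyA+ RNA against CPM + 0.1 in rRNA-depleted RNA, both on log axes, for each pair of libraries of the same genotype, stage and replicate number, with ski7-/- in orange, wild type in blue, oocytes filled and embryos open. Points along the grey line of equal levels are on or off in both library types, and those of si:ch211-11i5.3 in oocytes lie above it while those of ENSDARG00000097414 lie below it.

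For each gene the closest partner in pattern over all libraries was found by Pearson's correlation of log2(CPM + 0.1) among 11387 genes. These correlations describe libraries that share stages, females and genotype. They were highest for zgc:173544 with si:ch1073-75o15.4 (r = 0.943), si:ch1073-190k2.1 with TG (0.920), si:dkey-81e3.2 with RAD52 (0.901), cirop with COL12A1 (0.863) and si:ch211-11i5.3 with insb (0.860). For dok1a (si:ch211-161h7.5), cyp2x7 (ppip5k1b), ENSDARG00000097414 (MAST2), akap12a (slc8a4b) and ftr19 (MSN) the best correlations were 0.731, 0.700, 0.689, 0.614 and 0.597. Between the 10 genes themselves r ranged from −0.722 (cyp2x7 with akap12a) to 0.810 (zgc:173544 with si:ch211-11i5.3).

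Genes beside the members in the RefSeq order of the GRCz12tu assembly were examined for 7 of the 10 genes, those that matched. They lay on 6 chromosomes, none of them that of hbs1l. Within 5 genes on each side, 20 neighbours were tested and 12 called at any stage of any period, against 55.3% of all genes tested. The count of 12 of 20 lies near that background and is no result about neighbours, and the values that follow are a description. Of the neighbours of si:dkey-81e3.2, IMMP2L, a mitochondrial inner membrane peptidase subunit, had 0 to 0.195 CPM in ski7-/- eggs and 6.40 to 17.6 CPM in wild-type eggs and fell in ski7-/- at all 3 states (edgeR adjusted p between 7.6e-05 and 0.00015). SAMTOR, an S-adenosylmethionine sensor of the mTORC1 pathway, had 0 to 1.68 CPM in polyA+ ski7-/- embryos and 8.30 to 23.0 CPM in polyA+ wild-type embryos. It fell there at all 4 stages (mean log2 fold change −4.37, SE 0.54 to 0.63, edgeR adjusted p between 1.7e-05 and 0.00020). In rRNA-depleted embryos its ranges overlapped, at 0 to 9.48 CPM in ski7-/- and 4.12 to 16.5 CPM in wild type. IMMP2L in eggs and SAMTOR in polyA+ embryos passed the filter only through wild-type libraries, so only a lower level in ski7-/- could be called. tmem60, a transmembrane protein gene, had no reads in the 12 rRNA-depleted ski7-/- embryo libraries and 4.81 to 16.8 CPM in the wild-type libraries. In oocytes the mean levels of tmem60 and IMMP2L were highest in the same replicates as si:dkey-81e3.2. tmem60 had mean polyA+ levels of 0.577, 0.0760 and 22.3 CPM in ski7-/- replicates 1 to 3 and 0, 0 and 39.3 CPM in wild-type replicates 1 to 3. IMMP2L had 1.35, 0 and 6.28 CPM in ski7-/- and 0.206, 0.0429 and 8.52 CPM in wild type. The O2 library of ski7-/- replicate 1 carried most of the signal of that replicate, with 5.22 CPM for IMMP2L and 2.13 CPM for tmem60. In eggs the neighbours did not follow si:dkey-81e3.2, since IMMP2L was present in all 3 wild-type females (16.9, 9.63 and 6.83 CPM) and tmem60 was under 1 CPM in every library.

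Other members had at most 1 neighbour called in the period in which they were on-off. The neighbour of dok1a, si:ch211-89o9.6, was higher in ski7-/- oocytes at all 4 stages (mean log2 fold change 1.15 in polyA+ and 1.27 in rRNA-depleted RNA). In eggs cnot1, a scaffold of the CCR4-NOT deadenylase complex near cyp2x7, had 0.820 to 4.40 CPM in ski7-/- and 18.6 to 51.0 CPM in wild type. It fell at all 3 states (−3.74, SE 0.55 to 0.57, edgeR adjusted p between 0.00046 and 0.00061). cnot1 passed the filter there only through wild-type libraries, so only a lower level in ski7-/- could be called. mbnl1, a splicing regulator near ftr19, had 33.4 to 79.8 CPM in ski7-/- eggs and 7.31 to 13.7 CPM in wild-type eggs and rose at all 3 states (2.24, SE 0.35, edgeR adjusted p between 0.00039 and 0.0014). rmnd1, near akap12a, was lower in ski7-/- eggs (−0.86), the opposite of akap12a. nedd8, near cirop, was lower in ski7-/- at 1 embryo stage in rRNA-depleted RNA.

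Few relatives of the named genes passed the filter. Of 6 other dok genes, 3 to 4 were tested per period, and only dok7a changed at every stage of a period, lower in ski7-/- eggs (mean log2 fold change −1.53), where 6.38% of all genes tested were lower at every state. DOK4 was higher at 2 of 4 polyA+ embryo stages (0.74). There dok7a was lower at 1 stage (−0.64), and dok1b was lower at 1 rRNA-depleted embryo stage (−0.34). Of 73 other ftr genes, 3 to 4 were tested, and only ftr67 did so, lower in ski7-/- oocytes in polyA+ (−1.79) and rRNA-depleted RNA (−1.91), where 1.88% and 3.5% of all genes tested were. It was also lower at 3 of 4 polyA+ embryo stages (−1.10), 1 rRNA-depleted embryo stage (−0.93) and 1 egg state (−0.75). In polyA+ embryos ftr86 was higher at 1 stage (0.33). In rRNA-depleted RNA ftr86 was lower at 1 oocyte stage (−0.23) and 1 embryo stage (−0.33). Over the 5 fits the median log2 fold change lay between −0.44 and 0.01 for the tested ftr genes and between −0.32 and 0.04 for the tested dok genes, beside −0.01 to 0.04 over all genes tested. akap12b, the paralog of akap12a, rose in ski7-/- oocytes at 2 of 4 stages in polyA+ RNA (mean over stages 1.43). In rRNA-depleted oocytes it rose at 1 stage (1.19). No wild-type polyA+ oocyte library reached 10 CPM for akap12b (at most 7.28 CPM), so only a higher level in ski7-/- could be called there. None of 5 other cyp2x genes and none of the 3 left-right organiser genes found passed the filter. For relatives called at some stages of a period only, no share over all genes stands beside the counts, so nothing is read from them.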

How the data were processed

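The authors removed adapter sequence with bbduk, mapped reads to the zebrafish build GRCz11 with HISAT2 2.1.0 and used HTSeq 0.9.1 to count unique alignments over genes, with versions as given in the submitters' processing notes. The deposited values are raw counts per gene and library, without normalization. Reads outside genes, between 10.7% and 29.7% of a library, stayed out of all totals. Whether counting used strand is not given in the sources used here. Transcript estimates were not used here, since they are not paired with genes.

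Oogenesis, eggs and embryogenesis were fitted separately for each library type in edgeR 4.0.16 (R 4.3.3) with TMM scaling and two-sided quasi-likelihood tests of ski7-/- over wild type for every stage. A filter of 10 CPM or more in 3 or more libraries of the fit left 9621, 7224 and 9232 genes in polyA+ oogenesis, eggs and embryogenesis and 10158 and 9917 in rRNA-depleted oogenesis and embryogenesis. Of the 10 genes, 7, 7, 6, 7 and 4 passed in the same order. Benjamini-Hochberg adjustment ran per stage over all genes tested, at a threshold of 0.05. Stages of an oocyte or egg replicate share a female, so adjusted p-values of single stages are not independent. Means of replicate sets were compared on log2(CPM + 0.1) by exact permutation.

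Members and gene lists were chosen with earlier results of these data known. The text names the members, the hbs1l locus, the best correlated genes, neighbours called in the period in which their member was on-off, and called relatives. The last genes inside and the first outside the choice were, for higher and lower in ski7-/-, cyp2x7 (8.58) and ly6m6 (8.09), si:ch211-11i5.3 (−11.02) and ABHD6 (−8.69) in oogenesis, ftr19 (5.79) and SRL (5.79), cyp2x7 (−12.38) and swi5 (−10.39) in eggs, and ENSDARG00000097414 (6.92) and ELOVL4 (6.01), si:dkey-81e3.2 (−10.37) and CCDC127 (−9.62) in embryos, as mean log2 fold changes.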

Additional observations from a re-analysis of the deposited data

Results flagged for a closer look

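For cyp2x7 and si:ch1073-190k2.1 the replicate sets moved one way in 1 period and the opposite way in another, without overlap between the genotypes. The difference between periods was not tested. On log2(CPM + 0.1), the mean of the 3 ski7-/- sets minus that of the 3 wild-type sets was 5.81 for cyp2x7 in polyA+ oogenesis and −8.94 in eggs, and both periods had chosen the gene. For si:ch1073-190k2.1 it was 1.43 in polyA+ oogenesis, which had not chosen it, and −11.71 in eggs and −11.12 in embryogenesis. In rRNA-depleted RNA it was 1.68 in oogenesis and −9.90 in embryogenesis. The sets of si:ch211-11i5.3 also turned without overlap, from −8.25 in polyA+ oogenesis, which chose it, to 0.90 in embryogenesis. In rRNA-depleted RNA they went from −6.48 to 2.49. For akap12a the difference was 6.37 in polyA+ eggs, which chose it, and −1.57 in rRNA-depleted oogenesis, again without overlap. Both genes were under the filter on low counts in the periods that had not chosen them. Whether oocytes, eggs and embryos came from the same animals is not given in the sources used here, so that period and animal cannot be told apart.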

How the results depend on the processing

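The 4 comparisons called higher outside the periods of choice, those of cirop and si:ch1073-190k2.1 in oocytes, stayed called under every alternative run: DESeq2 size factors, the DESeq2 Wald test, other filters, counts summed over stages, a limma-voom fit with the replicate set as a random block, and each replicate left out. With the filter of 10 CPM the test of cirop in oocytes could go in 1 direction only. Calls lower in ski7-/-, 0 in all, became 1 with the DESeq2 Wald test (si:dkey-81e3.2 in eggs). With a replicate left out they ranged from 0 to 2. The 2 came without ski7-/- replicate 3 and were those of cyp2x7 in embryos, where that replicate was the only high ski7-/- set. Calls higher in ski7-/- ranged from 4 to 5 with a replicate left out. Added were dok1a in eggs without ski7-/- replicate 1 and ENSDARG00000097414 in eggs without wild-type replicate 2. Those replicates stood out by their levels of these genes, so nothing is read from the added calls. With a filter of 1 CPM 26 comparisons could be tested and with none 30, without a further call at every stage. Neighbours called went from 12 of 20 tested to 27 of 37 with 10 genes on each side, beside 55.3% of all genes tested. The wider window thus lay further above that share, a difference that was not tested. cyp2x7 was the only gene on-off in both directions under each limit and left-out library tried. Both of its on-off periods had chosen it, so this is no support for the change of direction. On-off stages with ski7-/- on ranged from 24 to 30 and those with wild type on from 30 to 47. Without the wild-type E2 libraries of replicate 2, an alternative added after seeing the data, they were 29 and 40.

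The replicate numbers did not pair the genotypes, as the correlation of same-numbered deviations lay between −0.0562 and 0.0693. With the replicate number as a block, 5 comparisons were called higher, with dok1a in eggs added, and 1 lower, si:dkey-81e3.2 in eggs. Depth limits statements on absence to 1.03 CPM in the shallowest polyA+ libraries and 2.08 CPM in the shallowest rRNA-depleted ones.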
